A study of Mus musculus with 14 samples.

Results

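Whole kidneys of 5 i-TERTci mice given the DMSO vehicle were compared with whole kidneys of 4 control mice, which makes 9 of the 14 samples of the series. All 9 libraries of the vehicle table belong to the comparison, assigned by their labels, and the table holds 24221 genes. A gene was tested when its normalised read count (reads divided by a size factor of the library) reached 10 in at least 4 libraries, which 18058 genes did. The i-TERTci mice carry 2 transgenes, each heterozygous: actin-rtTA+, which makes the doxycycline-dependent activator throughout the body, and TetOp-TERTci+, which that activator switches on. The controls carry Actin-rtTA+ without the second transgene, so every mouse compared here makes the activator. All 9 mice drank doxycycline, the controls for 30 days, DMSO mice 1, 2 and 3 for 29 days, DMSO mouse 4 for 38 days and DMSO mouse 5 for 31 days. Daily intraperitoneal DMSO began at about day 15, when urinary protein was above 10 mg/mL, and the treatment label of the controls names doxycycline alone. Expression is ubiquitous in this model, so no result below belongs to 1 kidney cell type by design, and age and sex are not in the labels.

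Telomerase adds telomere repeats to chromosome ends, with Tert as its reverse transcriptase and an RNA as template. TERTci is a form of Tert that cannot catalyse this reaction. In collapsing glomerulopathy the filtering tufts of the kidney fold in, podocytes lose their specialised shape, protein leaks into the urine, and the tubules downstream are injured. The nephron runs from the glomerulus through the proximal tubule, which takes back most of the filtrate, the loop of Henle, and the distal tubule and collecting duct, which set the final urine. The comparison asks how the kidney with induced TERTci, heavy proteinuria and daily DMSO differs from the kidney with the activator alone.

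Control and DMSO libraries also differed as libraries. The controls held 48469575 to 64582234 reads in genes and the DMSO kidneys 47196007 to 48847672. The share of mitochondrially encoded genes was 14.4% to 24.2% in the controls and 4.95% to 9.52% with DMSO, and that of mitochondrial ribosomal RNA was 0.330% to 0.613% against 0.0360% to 0.0754% (exact permutation test, two-sided, p = 0.0159 for each, the smallest that 4 against 5 libraries allow, 0.0238 adjusted over 9 library measures). Processed pseudogenes took 0.0714% to 0.137% and 0.163% to 0.199%, with 304 of 620 higher and 58 lower. Protein-coding genes with the lowest GC content, 31.0% to 41.5% of the transcript, had a median log2 difference of 0.48, and those with the highest, 57.9% to 76.3%, of -0.59, and the median fell at each step from decile 1 to decile 10. Control 3 showed the least of this trend, with library medians from -0.05 to 0.11 against -0.36 to 0.47 in control 1. All 4 controls and DMSO mice 2 and 5 were Xist-positive, and DMSO mice 1, 3 and 4 were Y-positive. Sex therefore differs in part between the groups, and among the 6 Xist-positive libraries alone 3383 genes were higher and 3685 lower. The controls carry sample numbers of their own block and their label names no injection, so genotype, DMSO injection and label block cannot be told apart. The GC trend and library composition also move with the groups. Values with the GC trend removed within each library (chosen after seeing the data) or among the Xist-positive libraries are given where they change a call or a count by over 1.5 times. The same holds for fits with Xist status as a covariate, for scaling to total reads and for fits without 1 library. All controls are Xist-positive, so with the covariate the group difference rests on DMSO mice 2 and 5 against the 4 controls. Its log2 differences are those of the Xist-positive libraries alone, and only the error estimate differs, so these 2 settings are not separate checks. Each library is 1 mouse by its label, so the p-values measure the spread between mice. Kidney markers were present in every library: Umod of the thick limb read 111253 to 213086 in the controls and 149296 to 646149.6 with DMSO, and the podocyte gene Nphs1 1527 to 1985 and 1151 to 4803.

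**Figure D1:**
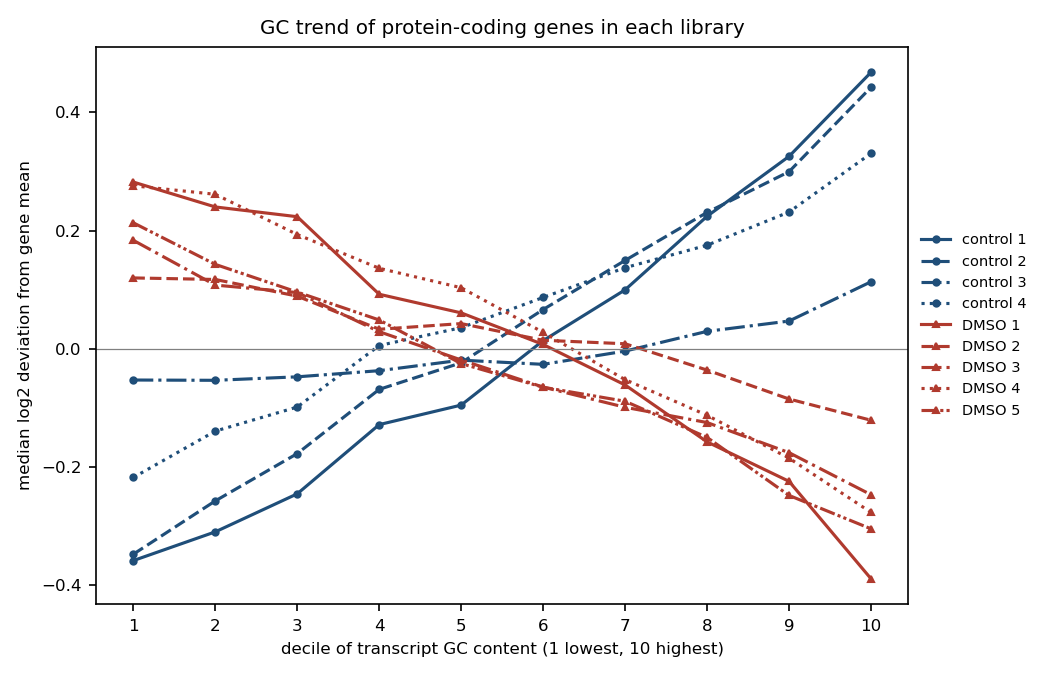
Median deviation of protein-coding genes from their own mean over the 9 libraries (vertical axis, log2), by decile of transcript GC content from lowest to highest (horizontal axis, 10 deciles of 1477 or 1478 genes), 1 line a library. The control lines climb, control 3 least, and the 5 DMSO lines descend.

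Tert, the gene of the induced transgene, read 113, 178, 143 and 136 in controls 1 to 4 and 1554, 1259, 2673, 1506 and 557 in DMSO mice 1 to 5. Every DMSO library was above every control, and DMSO mouse 5 had the lowest level of the induced mice (log2 difference 3.25, SE 0.36, limma adjusted p = 6.07e-05). Gene totals hold transgenic and native reads together. Ppm1d, which encodes the phosphatase WIP1 that shuts down p53 signalling, read 848, 859, 912 and 898 in controls 1 to 4 and 524, 502, 607, 548 and 514 in DMSO mice 1 to 5. All 5 DMSO libraries lay below all 4 controls, with a narrow spread in both groups (log2 difference -0.71, SE 0.15, limma adjusted p = 0.00202). In GRCm38 the Tert gene spans 73626911 to 73649843 of chromosome 13, and that of Ppm1d 85311244 to 85347066 of chromosome 11. Of 18 telomerase and telomere genes tested, Tert among them, 2 rose and 6 fell, with a median of -0.09. The shelterin gene Acd read 3149.5, 2386, 1777 and 2525 in controls 1 to 4 and 993, 807, 744, 899 and 754 in DMSO mice 1 to 5, with no overlap (log2 difference -1.53, SE 0.18, limma adjusted p = 7.03e-05). With libraries scaled to total reads 5 of the list were higher and 1 lower, without control 2 the counts were 2 and 3, without control 4 they were 1 and 3, and with the GC trend removed 2 and 4. Ppm1d did not pass with total-read scaling (log2 -0.40, adjusted p = 0.129).

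Of the 18058 genes tested, 8389 (46.5%) passed limma's moderated test at an adjusted p under 0.05, 4222 higher (23.4%) and 4167 lower (23.1%) with DMSO. At least 2-fold apart were 2414 genes higher (13.4%) and 2693 lower (14.9%), and at least 16-fold apart 192 higher and 100 lower. In 3589 genes (19.9%) all 5 DMSO libraries were above all 4 controls and in 3488 (19.3%) all were below. Without control 2 the counts were 3323 higher and 3261 lower. Scaled to total reads the split was 5873 higher and 2455 lower, with the median of all genes moved from 0.01 to 0.31 (log2), so list counts below are relative to the size factors. Each list count is to be read beside 23.4% higher and 23.1% lower over all genes, and a count near those shares says nothing about its list.

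The smallest p of all rises was that of Tent5a, a poly(A) polymerase of secretory cells, which read 520.3, 410.3, 477 and 413 in controls 1 to 4 and 23021, 27599, 27125, 23930.1 and 29972 in DMSO mice 1 to 5. The highest and lowest DMSO kidneys differed by 1.3-fold, and the lowest was 44.2-fold above the highest control (log2 difference 5.85, SE 0.15, limma adjusted p = 4.45e-10). Scg5, a chaperone of prohormone convertase in endocrine cells, read 225, 236, 326 and 252 in controls 1 to 4 and 3709, 4067, 3033, 1744 and 2968 in DMSO mice 1 to 5, with DMSO mouse 4 lowest of its group and still above every control (log2 difference 3.53, SE 0.23, limma adjusted p = 3.33e-06). Ptprn2, a membrane protein of dense-core secretory granules, read 12.8, 15.4, 15.7 and 23 in controls 1 to 4 and 277, 553, 1418, 579 and 915 in DMSO mice 1 to 5, low in all controls and 12-fold above the highest of them in the lowest DMSO kidney (log2 difference 5.23, SE 0.41, limma adjusted p = 7.97e-06). Vgf, a neuropeptide precursor, read 0, 1.81, 0 and 0 in controls 1 to 4 and 35.9, 577, 93.4, 447 and 29.7 in DMSO mice 1 to 5, highest in DMSO mice 2 and 4. With 2 reads in the 4 controls together, the ratio of pooled reads was 463, with an exact binomial 95% interval of 128 to 3828 that covers counting error only. The cholesterol exporter Abca1 read 742, 1097, 1460.1 and 1176 in controls 1 to 4 and 6963, 6066, 6501, 8656 and 5533 in DMSO mice 1 to 5 and separated the groups without overlap (log2 difference 2.61, SE 0.21, limma adjusted p = 7.97e-06). Among the 10 smallest p of each direction the rises also held Cd33 and Plek of myeloid cells (log2 3.19 and 2.60), the metalloprotease Mmp23 (2.76), the calcium-binding protein Nucb2 (2.43), the lysosomal enzyme Aga (2.14) and the adhesion molecule Cadm1 (2.11).

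Among the falls Slc9a8, a sodium-proton exchanger of the Golgi, read 24257, 24555, 25922 and 29709 in controls 1 to 4 and 1842, 1791, 2019.9, 2696 and 2619 in DMSO mice 1 to 5. The mice of 1 group differed by at most 1.51-fold, and the highest DMSO kidney was 9-fold below the lowest control (log2 difference -3.59, SE 0.18, limma adjusted p = 3.78e-07). Acy1, which frees amino acids from N-acetylated forms, read 33615, 36029, 25317 and 31925 in controls 1 to 4 and 5476, 3453, 3662, 6111 and 4128 in DMSO mice 1 to 5 (log2 difference -2.82, SE 0.21, limma adjusted p = 7.97e-06). The kinase gene Dyrk1b read 2934, 2555, 1387 and 2351 in controls 1 to 4 and 377, 369, 368, 346 and 376 in DMSO mice 1 to 5 (log2 difference -2.60, SE 0.21, limma adjusted p = 7.97e-06). Control 3 was lowest of the controls for both Acy1 and Dyrk1b and still above every DMSO kidney, and the DMSO values of Dyrk1b differed by only 1.09-fold. Cldn11, a tight-junction claudin, read 224, 235, 262 and 247 in controls 1 to 4 and 3.59, 4.5, 12.7, 3.15 and 8.04 in DMSO mice 1 to 5, almost absent in the DMSO kidneys (log2 difference -5.19, SE 0.39, limma adjusted p = 7.97e-06). The corticosteroid carrier Serpina6 read 12203, 20519.9, 16860.1 and 7039.9 in controls 1 to 4 and 9.58, 47.7, 37.2, 4.2 and 28.1 in DMSO mice 1 to 5 (log2 difference -9.38, SE 0.63, limma adjusted p = 9.33e-06). Hdc, which makes histamine, read 8323, 5402, 2639.6 and 9333 in controls 1 to 4 and 214, 152, 117, 409.8 and 211 in DMSO mice 1 to 5 (log2 difference -4.83, SE 0.42, limma adjusted p = 2.23e-05). Neither gene overlapped between groups, and the gap was 148-fold for Serpina6 and 6.44-fold for Hdc. The short non-coding RNA Bc1 read 1897, 1288, 1604 and 1127 in controls 1 to 4 and 3.59, 1.8, 0, 0 and 3.22 in DMSO mice 1 to 5, with reads in only 3 of the 5 DMSO libraries (log2 difference -9.35, SE 0.50, limma adjusted p = 5.89e-07). No DMSO library reached the filter of 10, so Bc1 entered the test through the controls alone. Bc1 is listed among RNAs that carry no long poly(A) tail. The share of reads in that list was 0.332% to 0.617% in the controls and 0.0376% to 0.0766% with DMSO. The apelin receptor gene Aplnr (log2 -5.91), the amino acid transporter family gene Slc7a12 (-6.27), the carbonic anhydrase gene Car3 (-5.99) and the potassium channel gene Kcng1 (-6.49) were among the 12 largest falls by fold. Slc7a12 is listed among genes with sex-biased kidney levels, and the controls are all Xist-positive. Its DMSO mice differed by 319-fold, with the highest 4.57-fold below the lowest control.

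**Figure D2:**
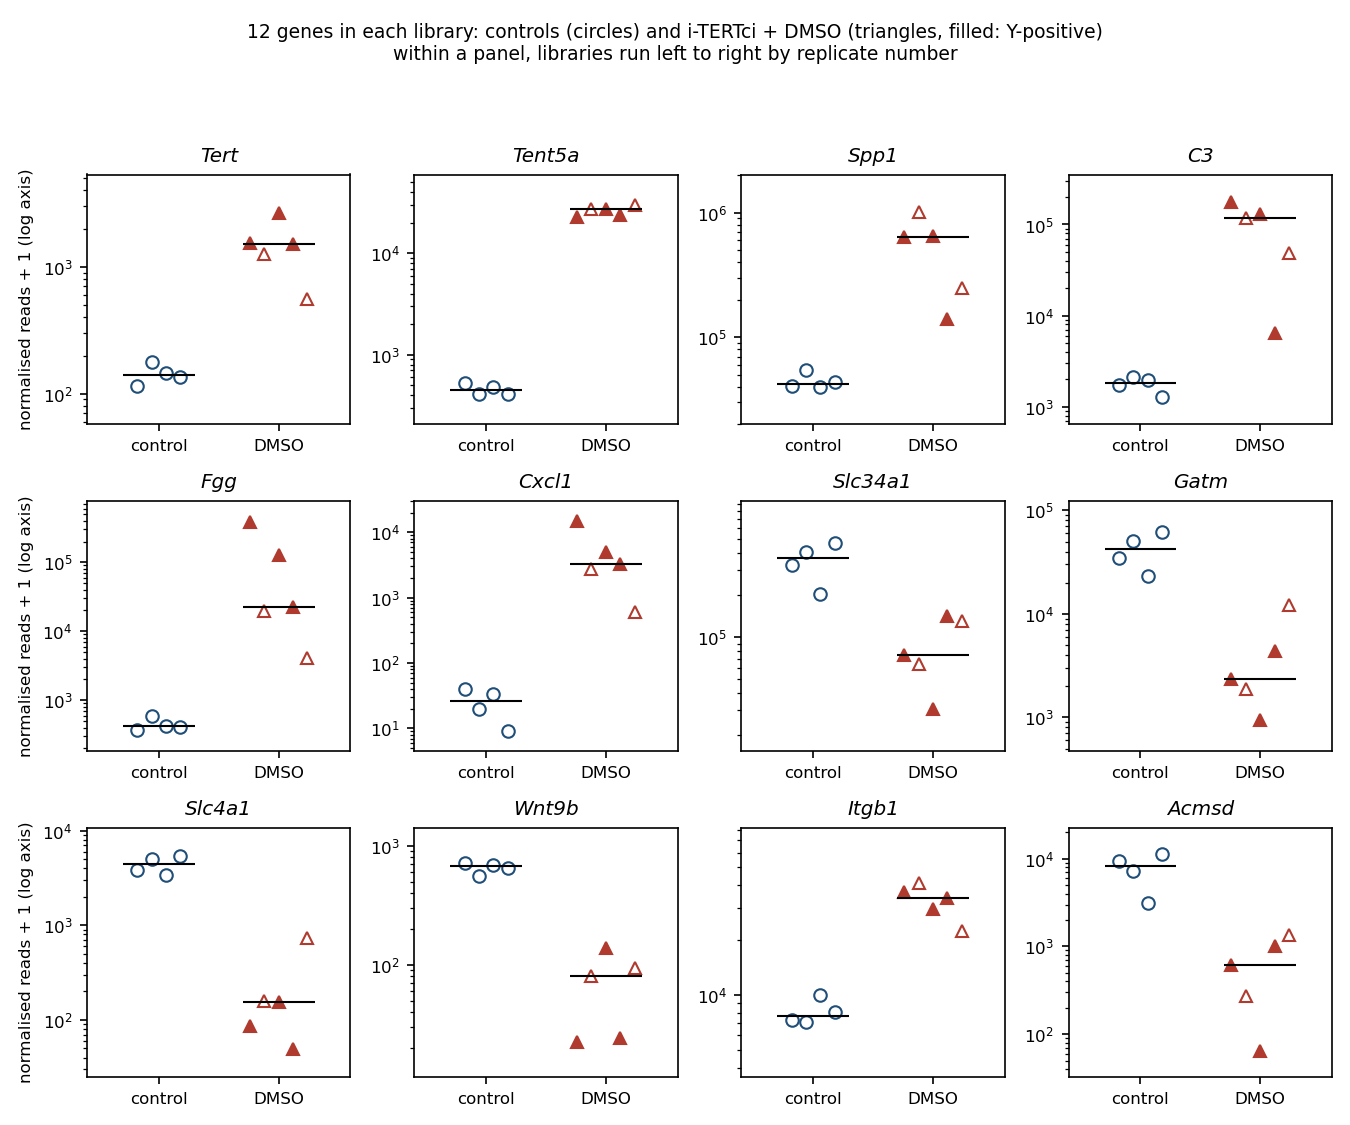
Normalised read count plus 1 (vertical axis, log scale) of 12 genes in each library, controls as circles and DMSO mice as triangles (filled where Y-positive), with horizontal bars at the group medians. The groups do not overlap in any of the 12 panels, and the highest and lowest DMSO mice differ by 93.3-fold for Fgg, 27.5-fold for C3 and 24.7-fold for Cxcl1.

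Genes of secreted and lysosomal proteins were among those that gained most reads. Spp1, which encodes osteopontin, a phosphoprotein secreted by injured tubules and macrophages, read 40664, 54189, 39915 and 43742 in controls 1 to 4 and 642585, 1013587, 649179.8, 139281 and 250427 in DMSO mice 1 to 5, with DMSO mouse 4 lowest and DMSO mouse 2 highest (log2 difference 3.28, SE 0.50, limma adjusted p = 4.09e-04). The lysosomal protease gene Ctsl read 8503, 8615, 10558 and 8418 in controls 1 to 4 and 155870.4, 101977, 108975, 56977 and 54080.5 in DMSO mice 1 to 5 and did not overlap between groups (log2 difference 3.30, SE 0.30, limma adjusted p = 1.42e-05). Psap, whose product yields the saposins that activate lysosomal hydrolases, rose by 1.08 (adjusted p = 0.00125), the lysosomal protease genes Lgmn and Ctsb by 1.18 and 0.96, and the membrane protein gene Itm2b by 1.33. Tsc22d1, a transcriptional regulator, read 11621, 15866, 11081 and 11885 in controls 1 to 4 and 162598, 50270.0, 53111, 77699.5 and 18752 in DMSO mice 1 to 5, highest in DMSO mouse 1 and 1.18-fold above the highest control in DMSO mouse 5 (log2 difference 2.21, SE 0.49, limma adjusted p = 0.00385). Lgmn and Ctsb did not pass with Xist status as a covariate (adjusted p from 0.0803 to 0.101).

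Proximal tubule genes were among those that lost most reads. Slc34a1, the main phosphate transporter of the brush border, read 326914, 408787, 203524 and 470277 in controls 1 to 4 and 74348, 63892, 30830.0, 141593 and 130396 in DMSO mice 1 to 5. Miox, the first enzyme of inositol breakdown, read 168811, 142082, 91955 and 125343 in controls 1 to 4 and 7872, 9635, 6334, 21587 and 31009 in DMSO mice 1 to 5. For both genes the highest DMSO kidneys, mice 4 and 5, stayed below the lowest control, which was control 3 (log2 difference -2.13, SE 0.43, limma adjusted p = 0.00189 for Slc34a1 and log2 difference -3.35, SE 0.44, limma adjusted p = 1.72e-04 for Miox). Aadat, which transaminates kynurenine and 2-aminoadipate, read 104623, 118531, 141175 and 122165 in controls 1 to 4 and 4883, 12243, 3936, 9564 and 26141 in DMSO mice 1 to 5 and fell furthest in DMSO mouse 3 (log2 difference -3.75, SE 0.47, limma adjusted p = 1.50e-04). Gatm, which makes the creatine precursor guanidinoacetate, read 35019, 50129, 23200.0 and 61578 in controls 1 to 4 and 2361, 1891, 947, 4409.9 and 12119.5 in DMSO mice 1 to 5 (log2 difference -3.75, SE 0.65, limma adjusted p = 0.00128). The lowest DMSO value of Gatm was again in mouse 3 and the highest in mouse 5. The endocytic receptor gene Lrp2 (megalin) read 94667, 112261, 126234 and 164880.3 in controls 1 to 4 and 31353, 26776, 24168, 52468 and 69956 in DMSO mice 1 to 5 (log2 difference -1.70, SE 0.32, limma adjusted p = 0.00127), and Fxyd2, the gamma subunit of the sodium pump, fell by 1.89. Napsa, an aspartic protease, fell by 1.28. Napsa did not pass with Xist status as a covariate, among Xist-positive libraries or with total-read scaling (adjusted p from 0.0688 to 0.182).

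Of 23 acute-phase genes, which encode plasma proteins that rise in inflammation, 18 were tested, 13 rose (2 of these with no control at a count of 10) and 0 fell, with a median log2 difference of 2.72 beside 0.01 over all genes. The 3 fibrinogen chains, which clotting joins into fibrin, were among them. Fga read 1665, 2217, 1847 and 1749 in controls 1 to 4 and 466471, 26296, 156772, 34651 and 4751 in DMSO mice 1 to 5. Fgb read 228, 283, 238 and 254 in controls 1 to 4 and 192749, 6447, 35273, 3630.2 and 1668 in DMSO mice 1 to 5. Fgg read 367, 593, 428 and 407 in controls 1 to 4 and 386802, 19422, 126274, 22757 and 4146 in DMSO mice 1 to 5. For all 3 chains DMSO mouse 1 was highest, DMSO mouse 3 second and DMSO mouse 5 lowest, and even mouse 5 was above every control (log2 difference 4.75, SE 1.16, limma adjusted p = 0.00984 for Fga, log2 difference 5.60, SE 1.28, limma adjusted p = 0.00748 for Fgb and log2 difference 6.46, SE 1.17, limma adjusted p = 0.00239 for Fgg). The liver's own marker Alb read 255, 179.8, 1981 and 335 in controls 1 to 4 and 231, 156, 75.2, 139.7 and 419 in DMSO mice 1 to 5 and did not pass (log2 -1.26, adjusted p = 0.158), and Apoa1 was 0.38 (adjusted p = 0.559). Both were looked up after the fibrinogen values were seen. C3, the central complement protein, read 1711, 2113, 1974 and 1279 in controls 1 to 4 and 176806, 116500.4, 130069.9, 6419.9 and 48465 in DMSO mice 1 to 5, lowest in DMSO mouse 4 and still above the controls (log2 difference 5.13, SE 0.87, limma adjusted p = 0.00144). The serpin gene Serpina3n read 497, 358, 206 and 248 in controls 1 to 4 and 22312, 9523, 34328, 4205 and 3280.3 in DMSO mice 1 to 5, highest in DMSO mouse 3 (log2 difference 5.01, SE 0.69, limma adjusted p = 4.65e-04). Hp rose by 3.11, while Hpx (-0.02, adjusted p = 0.99) and A2m (-0.45, adjusted p = 0.616) did not pass. With Xist status as a covariate 7 of the list were higher. Fga and Fgb did not pass with Xist status as a covariate (adjusted p from 0.0822 to 0.0899).

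Promoters of the fibrinogen chains and of a pair of chemokine genes are shown because these genes rose together and their motif matches differ. Fga, Fgb and Fgg lie side by side on mouse chromosome 3, and Cxcl1 and Cxcl2, which attract neutrophils, on chromosome 5. Each window is the RefSeq one, 250 bases before to 50 after the annotated start in GRCm38.p6, written 5′ to 3′ on the gene's strand. Capitals mark matches on either strand to 4 motifs: GGG, NN and TTTCC in a row for NF-kB, TTGCNNAA for C/EBP, TTCNNGGAA for STAT and TGANTCA for AP-1.
Cxcl1, chr5:90890995-90891294 (plus strand): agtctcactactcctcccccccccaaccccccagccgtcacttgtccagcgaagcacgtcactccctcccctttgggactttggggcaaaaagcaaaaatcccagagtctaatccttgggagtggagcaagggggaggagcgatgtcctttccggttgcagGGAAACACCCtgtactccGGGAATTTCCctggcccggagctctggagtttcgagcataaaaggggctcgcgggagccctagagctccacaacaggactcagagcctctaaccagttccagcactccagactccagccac
Cxcl2, chr5:90903649-90903948 (plus strand): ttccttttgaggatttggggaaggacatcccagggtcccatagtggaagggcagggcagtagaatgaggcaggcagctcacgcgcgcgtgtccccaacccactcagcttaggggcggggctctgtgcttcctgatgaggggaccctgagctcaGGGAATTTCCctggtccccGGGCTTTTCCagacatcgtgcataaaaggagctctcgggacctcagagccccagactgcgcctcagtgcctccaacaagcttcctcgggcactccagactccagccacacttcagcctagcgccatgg
Fga, chr3:83025903-83026202 (plus strand): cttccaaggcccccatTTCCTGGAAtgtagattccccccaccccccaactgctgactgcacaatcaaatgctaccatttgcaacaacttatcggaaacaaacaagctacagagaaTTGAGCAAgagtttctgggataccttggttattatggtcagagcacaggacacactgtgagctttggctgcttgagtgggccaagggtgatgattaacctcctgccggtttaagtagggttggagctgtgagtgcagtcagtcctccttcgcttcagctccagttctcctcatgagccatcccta
Fgb, chr3:83049814-83050113 (minus strand): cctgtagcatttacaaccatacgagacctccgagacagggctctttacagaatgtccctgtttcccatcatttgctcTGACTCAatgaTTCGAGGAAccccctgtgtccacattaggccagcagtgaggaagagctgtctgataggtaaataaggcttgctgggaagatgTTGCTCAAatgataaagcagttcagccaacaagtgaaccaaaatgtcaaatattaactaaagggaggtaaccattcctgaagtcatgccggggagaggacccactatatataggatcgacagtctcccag
Fgg, chr3:83007474-83007773 (plus strand): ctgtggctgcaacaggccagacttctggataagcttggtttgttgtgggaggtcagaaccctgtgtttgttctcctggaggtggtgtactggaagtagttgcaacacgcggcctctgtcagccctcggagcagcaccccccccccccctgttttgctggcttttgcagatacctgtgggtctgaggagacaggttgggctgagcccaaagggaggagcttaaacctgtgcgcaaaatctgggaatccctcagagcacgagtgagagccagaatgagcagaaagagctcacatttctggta
Cxcl1 holds a pair of NF-kB matches starting at bases -89 and -71 from the start and Cxcl2 a pair at -97 and -78. Fga holds a STAT match at -234 and a C/EBP match at -135, and Fgb an AP-1 match at -173, a STAT match at -162 and a C/EBP match at -80. None of the 4 motifs matched in the Fgg window. Over all 27025 RefSeq windows of this length 1.62% held the NF-kB motif, 10.8% the C/EBP, 4.94% the STAT and 7.93% the AP-1 motif. Of 15 acute-phase list genes with a window, 8 held C/EBP, 5 STAT, 3 NF-kB and 3 AP-1. Of 10 CXC chemokine genes 3 held NF-kB, 3 AP-1, 2 C/EBP and 0 STAT. Of 19 genes of the NF-kB list 5 held NF-kB, 6 STAT, 4 AP-1 and 0 C/EBP. A match describes letters and is not a measured binding site.

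Both neutrophil chemokine genes rose. Cxcl1 read 39.6, 19, 32.4 and 8.04 in controls 1 to 4 and 15078, 2711, 5019, 3269 and 610.2 in DMSO mice 1 to 5 (log2 difference 7.23, SE 0.82, limma adjusted p = 1.65e-04). Cxcl2 read 11.8, 1.81, 0.981 and 8.04 in controls 1 to 4 and 522, 243, 345, 555 and 77.2 in DMSO mice 1 to 5 (log2 difference 5.83, SE 0.68, limma adjusted p = 8.68e-05). DMSO mouse 5 was lowest for both and was above all controls. Of 13 CXC chemokines 7 rose (1 of these with no control at a count of 10) and 2 fell. The mucosal chemokine gene Cxcl17 rose by 4.59 and the platelet chemokine gene Pf4 by 3.06, and Cxcl12, a stromal homing signal, fell by 1.30. Of 16 CC and other chemokines 4 rose, among them Ccl20 with 3 reads in the controls together and 0 to 1.96 against 1.2 to 127 per library (ratio of pooled reads 78.2, exact binomial 95% interval 26.5 to 381), and 2 fell, among them Ccl21a, which guides cells to lymphoid tissue, by 2.86.

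Most neutrophil genes that passed the test were higher with DMSO, and many of them were tested only because the DMSO libraries reached the filter. The primary granule gene Mpo, normally made by precursors in bone marrow, was at 0 in all 4 controls and read 623, 41.4, 448, 26.3 and 39.4 in DMSO mice 1 to 5. Pooled over mice this was at least 283-fold higher, against a floor of 3 reads over the 4 controls (limma adjusted p = 2.21e-04), with mice 1 and 3 far above the other 3. Mice 1 and 3 were also highest for the secondary granule genes. Ltf read 28.9, 23.5, 33.4 and 31 in controls 1 to 4 and 3609, 184, 2482, 271 and 195 in DMSO mice 1 to 5, and Camp read 1365, 10.8, 1019.9, 39.9 and 41 in DMSO mice 1 to 5 against 0 to 0.981 in the controls. Genes of mature cells had another order: Cxcr2, the receptor for Cxcl1 and Cxcl2, read 3.21, 0.904, 6.87 and 3.45 in controls 1 to 4 and 135, 38.7, 168, 572 and 46.6 in DMSO mice 1 to 5 (log2 difference 4.87, SE 0.73, limma adjusted p = 3.47e-04). Retnlg, a secreted resistin-like protein, read 2.14, 0, 6.87 and 1.15 in controls 1 to 4 and 364, 117, 654, 1578 and 93.3 in DMSO mice 1 to 5 (log2 difference 6.95, SE 0.85, limma adjusted p = 1.44e-04). Both were highest in DMSO mouse 4 and separated the groups. Of 18 granule genes 13 were tested, 11 rose and 1 fell, the latter Ltc4s of leukotriene synthesis. In 6 of the 13 no control reached a normalised count of 10, so they entered the test only through the DMSO libraries and all 6 rose, while of the other 7 genes 5 rose. Of 21 genes of mature neutrophils 16 were tested, 13 rose and 1 fell, the latter Hdc. In 11 of the 16 no control reached 10 and all 11 rose, and of the other 5 genes 2 rose. The filter thus shapes both counts: at 50 reads 7 granule and 6 mature neutrophil genes were higher, and with none 13 and 17. Fewer cells of a type and less RNA per cell cannot be told apart in whole-kidney RNA, here or in any list below.

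Of 26 cytokine genes 15 reached the filter, of which 10 rose (1 of these with no control at a count of 10) and none fell. Lif, an interleukin-6 family cytokine, read 18.2, 9.04, 15.7 and 19.5 in controls 1 to 4 and 73, 372, 257, 1652 and 157 in DMSO mice 1 to 5, highest in DMSO mouse 4 (log2 difference 4.15, SE 0.73, limma adjusted p = 0.00107). Osm, of the same family, rose by 3.58, Il1b by 3.39, its antagonist Il1rn by 3.29 and the macrophage growth factor gene Il34 by 2.92. Genes downstream of this family rose too. Socs3, the feedback inhibitor that STAT3 induces, read 162, 189, 125.60 and 131 in controls 1 to 4 and 7833, 1341, 2336, 2391 and 597 in DMSO mice 1 to 5 (log2 difference 3.76, SE 0.59, limma adjusted p = 7.22e-04). Stat3 itself read 3133, 3909, 3578 and 3769 in controls 1 to 4 and 26676, 8919, 10413, 16506 and 6277 in DMSO mice 1 to 5 (log2 difference 1.75, SE 0.35, limma adjusted p = 0.00187). DMSO mouse 1 was highest and mouse 5 lowest for both, without overlap with the controls, and the oncostatin receptor gene Osmr rose by 1.56. Of 15 genes of this signalling list 7 rose and none fell, and with Xist status as a covariate 3 were higher and 1 lower. Of 23 NF-kB subunits, inhibitors and targets 11 rose and none fell. The survival gene Birc3 read 419, 428, 479.8 and 415 in controls 1 to 4 and 3026, 1581, 2188, 1359.6 and 1229 in DMSO mice 1 to 5 (log2 difference 2.03, SE 0.24, limma adjusted p = 7.44e-05). The inhibitor gene Tnfaip3 read 209, 280.2, 236 and 293 in controls 1 to 4 and 715, 1194, 1135, 938 and 877 in DMSO mice 1 to 5 (log2 difference 1.92, SE 0.20, limma adjusted p = 3.31e-05). Neither overlapped between groups. The early inhibitor gene Nfkbia did not pass (log2 -0.05, adjusted p = 0.862), and Relb of the alternative arm rose by 1.51.

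Complement genes rose at several steps of the cascade. Of 24 tested 14 rose and 2 fell (1 of these with no DMSO library at a count of 10). C4b of the classical arm read 197, 147, 216 and 131 in controls 1 to 4 and 11665, 1099, 4897, 2719 and 1250.2 in DMSO mice 1 to 5, and its lowest DMSO kidney was 5.09-fold above its highest control (log2 difference 4.10, SE 0.63, limma adjusted p = 7.34e-04). The terminal components C6 and C7 rose by 2.35 and 3.09, the alternative-pathway gene Cfb by 1.99, and the inhibitor gene Cfi by 2.81. The terminal component gene Hc was low (0 to 14.7 in the controls, 0.9 to 21.8 with DMSO), with an adjusted p of 0.219. Cfd, made mainly by fat cells, fell by 6.99, with controls that differed by 27.8-fold among themselves.

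Macrophage genes moved apart from each other. Of 24 tested 11 rose and 2 fell. The scavenger receptor gene Msr1 read 28.9, 30.7, 44.2 and 29.9 in controls 1 to 4 and 584, 278, 578, 195 and 283 in DMSO mice 1 to 5 (log2 difference 3.37, SE 0.35, limma adjusted p = 3.42e-05), and the inhibitory receptor gene Cd300lf rose by 4.75. Csf1r, a receptor gene of monocytes and macrophages, read 4033, 4604, 4190.0 and 3891 in controls 1 to 4 and 1109, 3597, 2841, 1593 and 3724 in DMSO mice 1 to 5 and did not pass although all DMSO values were lower (log2 -0.85, adjusted p = 0.0527). Adgre1, at the head of the list, did not pass either (log2 0.87, limma adjusted p = 0.208), and was higher among Xist-positive libraries (log2 1.825, limma adjusted p = 1.25e-04). The fractalkine receptor gene Cx3cr1 read 459, 333, 417 and 379 in controls 1 to 4 and 5.99, 583, 66.2, 56.7 and 914 in DMSO mice 1 to 5. DMSO mice 2 and 5, the Xist-positive pair, were above all controls and the other 3 mice below all of them, and the gene did not pass (log2 -1.88, adjusted p = 0.257). Among Xist-positive libraries the macrophage counts were 18 higher and 2 lower, and DESeq2 gave 17 and 2. Of 20 antigen presentation genes tested 8 rose and none fell, and 16 were higher among Xist-positive libraries and 15 with Xist status as a covariate. The class I gene H2-K1 read 10496, 7889, 8145 and 5769.8 in controls 1 to 4 and 34401, 58307, 37033, 21831 and 47779 in DMSO mice 1 to 5, highest in DMSO mice 2 and 5 (log2 difference 2.26, SE 0.28, limma adjusted p = 9.18e-05), and H2-D1 rose by 1.86. The peptide-loading gene Tapbp rose by 1.66, and their partner B2m did not pass (0.07, adjusted p = 0.861). Of 28 interferon-stimulated genes 1 rose, Irf1 (0.96), and 8 fell, among them Gbp3 (-2.26) and Zbp1 (-1.97). Those counts were 1 and 5 without control 1 or control 2, 2 and 5 without DMSO mouse 3, 2 and 5 scaled to total reads, and 3 and 2 with Xist status as a covariate. Among Xist-positive libraries they were 6 and 6, with a median of -0.01, and 8 and 6 with the GC trend removed as well, so the direction of the list did not hold there. Of 20 T, natural killer and B cell genes none rose and 3 fell, Trac, Cd8a and Nkg7 (15.0%, beside 23.1% over all genes). Between 0 and 10 fell under the alternatives: 1 without control 1, control 2, DMSO mouse 1 or DMSO mouse 4, and 10 without DMSO mouse 5. The Xist-positive libraries gave 1 higher and 1 lower, with a median of 0.19. Cd8a and Nkg7 overlapped between groups. Neither passed among Xist-positive libraries, in edgeR or with total-read scaling (adjusted p from 0.0575 to 0.411). Nor did they without control 1, control 2, DMSO mouse 1, DMSO mouse 3 or DMSO mouse 4 (adjusted p from 0.052 to 0.1145). Cd8a did not pass in DESeq2 or without control 4 either. Trac, Cd8a and Nkg7 did not pass with Xist status as a covariate (adjusted p from 0.0535 to 0.423). Zbp1 did not pass with Xist status as a covariate (log2 -1.35, adjusted p = 0.065). Csf1r passed without DMSO mouse 2 or DMSO mouse 5 (adjusted p from 0.0217 to 0.0275).

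Along the nephron, more genes fell than rose in each of the 3 parts of the proximal tubule. Of 18 genes of the first part (S1) 7 fell and 1 rose (median -0.53), of 14 of the second (S2) 7 fell and 2 rose (median -1.48), and of 15 of the third (S3) 6 fell and none rose (median -0.66). Slc22a7, the organic anion transporter OAT2, read 14732, 21446, 16073 and 20420.4 in controls 1 to 4 and 311, 723, 384, 2992 and 2166 in DMSO mice 1 to 5 and lost most in DMSO mice 1, 2 and 3 (log2 difference -4.33, SE 0.65, limma adjusted p = 6.73e-04). The glucose transporter gene Slc5a2 (SGLT2) fell by 1.56, the nucleobase and nicotinate transporter gene Slc22a13 by 2.90, the water channel gene Aqp1 by 1.38 and the organic cation transporter gene Slc22a2 by 2.08. The amino acid transporter genes Slc6a19 (-0.41, adjusted p = 0.24) and Slc7a9 (-0.41, adjusted p = 0.153) and the receptor gene Cubn (-0.59, adjusted p = 0.0692) did not pass. Some members are known to differ between male and female kidneys and varied widely among the DMSO mice. Slco1a1, a steroid conjugate transporter, read 0, 0, 30.4 and 0 in controls 1 to 4 and 1993, 2.7, 93.4, 5106 and 4.02 in DMSO mice 1 to 5 (log2 5.57, adjusted p = 0.088). Slc7a13, an acidic amino acid transporter, read 80.3, 38, 101.07 and 20.7 in controls 1 to 4 and 1401, 2.7, 196, 11434 and 5.63 in DMSO mice 1 to 5 (log2 1.55, adjusted p = 0.614). DMSO mice 1 and 4 were high and the Xist-positive mice 2 and 5 low for both, and neither gene passed. Kap, an androgen-responsive protein of the proximal tubule, read 1422521, 960524, 829598 and 767725 in controls 1 to 4 and 1000469.9, 27592, 166974, 1082608 and 33817 in DMSO mice 1 to 5 (log2 -2.46, adjusted p = 0.103). For Kap the Y-positive mice 1 and 4 were at control level, and mice 2, 3 and 5 below all controls. Scaled to total reads 3 of the S3 list were lower. Slco1a1 and Slc7a13 passed in DESeq2 (adjusted p from 0.004 to 0.00702) and Cubn with the GC trend removed or without DMSO mouse 5 (adjusted p from 0.0192 to 0.0301). Kap passed with Xist status as a covariate, among Xist-positive libraries or without DMSO mouse 4 (adjusted p from 1.06e-05 to 0.0352) and Slco1a1 in edgeR or without control 3 or DMSO mouse 2 (adjusted p from 0.0452 to 0.0493). Slc7a9 and Kap passed without DMSO mouse 1 (adjusted p from 0.0273 to 0.047).

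Of 10 thin limb genes 5 fell and 3 rose, and of 15 thick limb genes 7 fell and 1 rose. Umod, whose product uromodulin is the main protein of normal urine, read 111253, 169111, 213086 and 176801 in controls 1 to 4 and 646149.6, 188565, 291841, 204921 and 149296 in DMSO mice 1 to 5 and did not pass (log2 0.65, adjusted p = 0.193), and the salt transporter gene Slc12a1 also did not (0.09, adjusted p = 0.863). Bsnd, a subunit of the chloride channels, read 4146, 4269, 3224 and 5034 in controls 1 to 4 and 341, 850.2, 901, 264 and 1063 in DMSO mice 1 to 5, without overlap (log2 difference -2.79, SE 0.40, limma adjusted p = 3.29e-04). Cldn16, the claudin through which magnesium returns to the blood, rose by 1.59. Higher and lower, the thick limb counts were 1 and 4 without control 2 or control 4 and among Xist-positive libraries, 1 and 3 with Xist status as a covariate, and 2 and 4 scaled to total reads. Of 10 macula densa and juxtaglomerular genes 2 rose and 2 fell. Pappa2, a protease of IGF-binding proteins, read 46, 38.9, 65.7 and 37.9 in controls 1 to 4 and 239, 728, 214, 449.7 and 832 in DMSO mice 1 to 5 without overlap (log2 difference 3.18, SE 0.41, limma adjusted p = 1.22e-04), and the prostaglandin synthase gene Ptgs2 rose by 2.05. Nos1, the other signalling enzyme of that plaque, fell by 1.24, and Ren1, which encodes renin, did not pass (-0.18, adjusted p = 0.634). Ptgs2 and Nos1 did not pass with Xist status as a covariate (adjusted p from 0.0757 to 0.0945). Umod passed with total-read scaling (log2 0.96, adjusted p = 0.0376).

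The distal segments moved more in 1 direction. Of 14 distal convoluted and connecting tubule genes 9 fell and none rose, of 14 principal cell genes 8 fell and 1 rose, and of 18 intercalated cell genes 11 fell and none rose. Slc12a3, the thiazide-sensitive salt transporter, read 38411, 50539.7, 40221 and 54357 in controls 1 to 4 and 20886, 5181, 13182, 17481 and 27661 in DMSO mice 1 to 5 (log2 difference -1.62, SE 0.40, limma adjusted p = 0.00658). Pvalb, a calcium buffer of the same cells, read 3482, 3085, 2931 and 2773 in controls 1 to 4 and 334, 45.9, 68, 432 and 425 in DMSO mice 1 to 5 (log2 difference -4.07, SE 0.68, limma adjusted p = 0.00116). DMSO mouse 2 was lowest for both, and no DMSO value reached the controls. The basolateral water channel gene Aqp4 read 3336, 4242, 6164 and 4805 in controls 1 to 4 and 508, 548, 240.3, 754 and 265 in DMSO mice 1 to 5 (log2 difference -3.42, SE 0.33, limma adjusted p = 3.20e-05). The vasopressin-regulated channel gene Aqp2 read 21132, 17739, 23429.7 and 16550.2 in controls 1 to 4 and 31677, 23391, 9207, 15632 and 16819.7 in DMSO mice 1 to 5, overlapped between groups and did not pass (-0.13, adjusted p = 0.743). Hsd11b2, which keeps cortisol from the aldosterone receptor, fell by 2.88 and the sodium channel subunit genes Scnn1b and Scnn1g by 1.5 and 1.28. In acid-secreting intercalated cells the anion exchanger gene Slc4a1 read 3873, 4992, 3393 and 5388 in controls 1 to 4 and 85, 156, 153, 48.3 and 729 in DMSO mice 1 to 5, 4.65-fold lower in the highest DMSO kidney than in the lowest control (log2 difference -4.86, SE 0.64, limma adjusted p = 3.14e-04). The base-secreting cells' Slc26a4 (pendrin) fell by 1.43, the proton pump gene Atp6v1b1 by 1.59, the lineage factor gene Foxi1 by 1.87 and the alkali-sensing receptor gene Insrr by 3.13. Slc4a1 is also a red cell gene. The haemoglobin gene Hba-a1, whose reads can be split with its near-identical copy Hba-a2, was 27808 to 47719 in the controls and 167 to 17719 with DMSO, and its part in the Slc4a1 value was not tested. Of 12 inner medullary genes 6 fell, among them the betaine transporter gene Slc6a12 (-3.62) and the urea transporter genes Slc14a1 (-2.81) and Slc14a2 (-2.30), and none rose, with the tonicity regulator gene Nfat5 at 0.31 (adjusted p = 0.162). Slc26a4 and Foxi1 did not pass with Xist status as a covariate (adjusted p from 0.0858 to 0.122). Nfat5 passed with total-read scaling (log2 0.62, adjusted p = 0.0355).

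**Figure D3:**
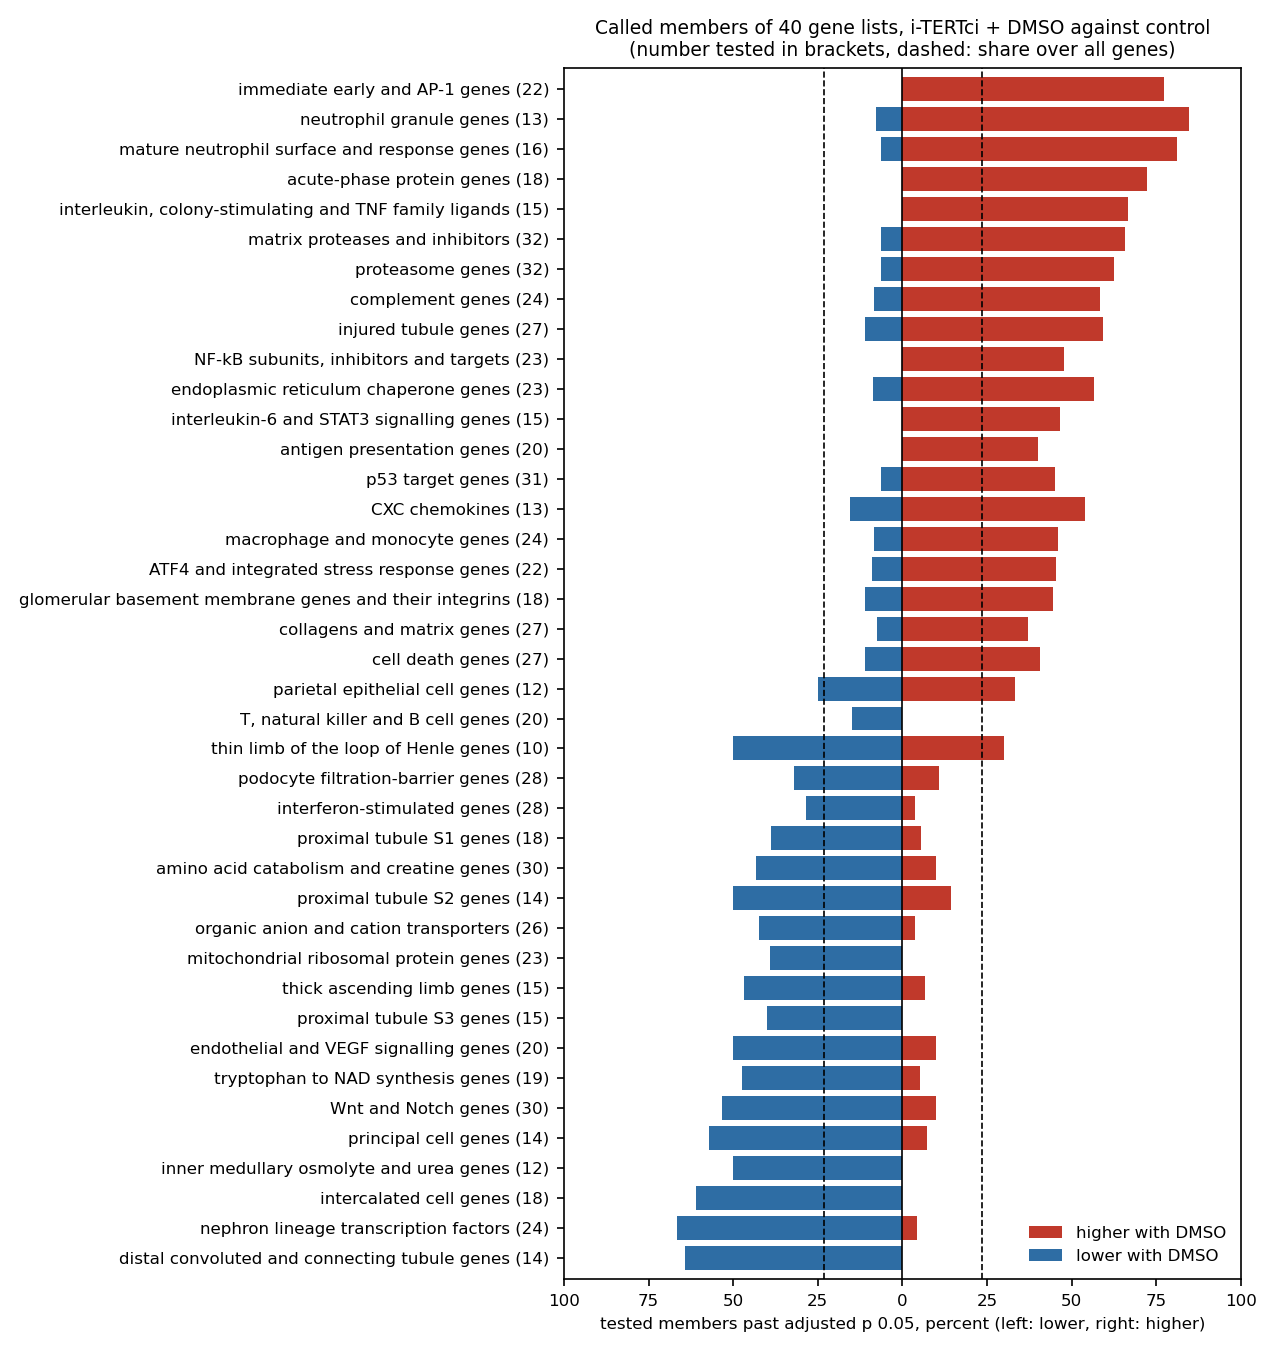
Share of tested members of 40 gene lists that passed the test higher (right, red) or lower (left, blue) with DMSO, in percent, with the number tested beside each list. Dashed lines mark the share over all genes, 23.4% higher and 23.1% lower. Neutrophil lists, in which 6 of 13 and 11 of 16 genes were tested through the DMSO libraries alone, and immediate early and acute-phase lists reach farthest right, and nephron transcription factor and distal tubule lists farthest left.

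Transcription factors that build and maintain the nephron were lower. Of 24 tested 16 fell and 1 rose, with a median of -1.04, and the counts were 17 and 0 with the GC trend removed. Pax2, of the nephron progenitor and collecting duct, read 7561, 6075, 4107 and 7796 in controls 1 to 4 and 693, 1323, 978, 1203 and 1458 in DMSO mice 1 to 5 (log2 difference -2.50, SE 0.25, limma adjusted p = 2.60e-05). Hnf4a fell by 1.13, Maf by 1.44, Irx1 by 1.51 and Gata3, listed among mesangial genes and also made by the collecting duct, by 2.61. The repair factor gene Sox9 read 82.4, 176, 47.1 and 59.7 in controls 1 to 4 and 654, 159, 201, 269 and 86.8 in DMSO mice 1 to 5, high in DMSO mouse 1 and within control range in mice 2 and 5 (log2 difference 1.43, SE 0.54, limma adjusted p = 0.0475). Of 30 Wnt and Notch genes 16 fell and 3 rose. Wnt9b, the duct signal that induces nephrons, read 713, 561, 689.8 and 653 in controls 1 to 4 and 21.6, 80.1, 137, 23.1 and 92.5 in DMSO mice 1 to 5 (log2 difference -3.53, SE 0.51, limma adjusted p = 2.88e-04), and the Wnt targets Lef1 and Lgr5 fell by 2.65 and 2.74. With Xist status as a covariate 10 of that list were lower and 2 higher. Lgr5 was low, at 21.7 to 64.3 in the controls and 1.05 to 10.5 with DMSO. Sox9 did not pass with Xist status as a covariate, among Xist-positive libraries, in voom, with the GC trend removed or without control 1, control 3, control 4, DMSO mouse 1, DMSO mouse 2, DMSO mouse 3 or DMSO mouse 4 (adjusted p from 0.0535 to 0.494).

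In the glomerulus 3 of 28 podocyte genes rose and 9 fell (median -0.05). Clic3, a chloride channel family gene, read 1228, 789.9, 484 and 729 in controls 1 to 4 and 80.2, 66.6, 59.8, 98.8 and 128 in DMSO mice 1 to 5 (log2 difference -3.18, SE 0.31, limma adjusted p = 2.19e-05). The transcription factor genes Wt1, Foxc2 and Lmx1b fell by 0.99, 1.5 and 1.17. The actin organiser Synpo read 5991, 5461, 4214 and 7057 in controls 1 to 4 and 4928, 2952, 2674, 3633 and 3345 in DMSO mice 1 to 5, overlapping in DMSO mouse 1 (log2 difference -0.70, SE 0.21, limma adjusted p = 0.0158). Thsd7a, a membrane antigen of the podocyte foot process, read 562, 414, 423 and 572 in controls 1 to 4 and 1115, 1197, 1161, 1008 and 1406 in DMSO mice 1 to 5 and rose without overlap (log2 difference 1.26, SE 0.17, limma adjusted p = 1.58e-04), and the slit adaptor gene Cd2ap rose by 0.93. The slit diaphragm gene Nphs1 (0.44, adjusted p = 0.278) did not pass, and its highest library was DMSO mouse 1. The podocyte direction turned with scaling: with total reads 9 were higher and 5 lower, and with the GC trend removed the counts were 2 and 5. Of 12 parietal epithelial genes 4 rose, among them Akap12 (2.53) and Cd44 (2.11), and 3 fell. Lmx1b, Synpo and Cd2ap did not pass with the GC trend removed (adjusted p from 0.061 to 0.319) and Synpo with total-read scaling or without control 4 (adjusted p from 0.0575 to 0.067). Nphs1 passed with total-read scaling or without DMSO mouse 2 (adjusted p from 0.0396 to 0.0405).

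Among basement membrane genes more rose than fell: of 18 tested 8 rose and 2 fell, and with the GC trend removed 11 rose and 1 fell. The integrin subunit gene Itgb1 read 7258, 7063, 10019 and 8075 in controls 1 to 4 and 36543, 41189, 29386, 33880.4 and 22314 in DMSO mice 1 to 5 (log2 difference 1.99, SE 0.21, limma adjusted p = 3.72e-05). Laminin chains rose, Lama5 by 0.78, Lamb2 by 0.65 and Lama1, of the immature membrane, by 1.0, and the proteoglycan gene Agrn by 0.80. Col4a3, a chain of the adult membrane, read 11889, 13235, 12089 and 16277 in controls 1 to 4 and 7997, 6959, 7579, 8371 and 7227 in DMSO mice 1 to 5 and fell without overlap (log2 difference -0.80, SE 0.16, limma adjusted p = 0.00191), while its partners Col4a4 (-0.06, adjusted p = 0.807) and Col4a5 (0.25, adjusted p = 0.456) did not pass. Of 20 endothelial genes 10 fell and 2 rose. Igfbp5 read 46746, 53886, 36693 and 74919.6 in controls 1 to 4 and 13136, 7492, 7906, 8332 and 13204 in DMSO mice 1 to 5 (log2 difference -2.40, SE 0.26, limma adjusted p = 4.07e-05), the growth factor gene Vegfa fell by 0.75, and its receptor gene Kdr did not pass (-0.22, adjusted p = 0.362). Without control 1, 2 or 4 the endothelial counts were 6 lower and 1 higher, with Xist status as a covariate 6 and 0, with the GC trend removed 7 and 3, and scaled to total reads 4 and 5. Lama5 did not pass with Xist status as a covariate (log2 0.72, adjusted p = 0.0632) and Vegfa with total-read scaling (log2 -0.44, adjusted p = 0.0861). Col4a5 passed with Xist status as a covariate or among Xist-positive libraries (adjusted p from 0.012 to 0.037).

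Immediate early genes, which cells switch on within minutes of a stimulus, rose: 17 of 22, and none fell. Fosl1 read 12.8, 9.94, 0.981 and 5.74 in controls 1 to 4 and 166, 263, 354, 1941 and 31.4 in DMSO mice 1 to 5 (log2 difference 5.22, SE 1.02, limma adjusted p = 0.00229). Atf3 read 91, 100.3, 92.2 and 45.9 in controls 1 to 4 and 2779, 1629, 1102, 2708 and 533 in DMSO mice 1 to 5 (log2 difference 4.22, SE 0.46, limma adjusted p = 7.22e-05). Fos read 56.7, 53.3, 80.5 and 25.3 in controls 1 to 4 and 895, 351, 325, 862 and 283 in DMSO mice 1 to 5 (log2 difference 3.23, SE 0.43, limma adjusted p = 1.56e-04). DMSO mouse 5 was lowest of its group for each and above all controls, and mouse 4 stood apart for Fosl1. Klf6 rose by 2.81, Egr1 by 2.21 and Jun by 1.48, and the MAP kinase phosphatase gene Dusp1 did not pass (-0.56, adjusted p = 0.0947). With Xist status as a covariate 10 of the list were higher. Egr1 did not pass with Xist status as a covariate (log2 1.34, adjusted p = 0.101). Dusp1 passed without DMSO mouse 4 (log2 -0.76, adjusted p = 0.0119).

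Of 31 p53 targets 14 rose and 2 fell. The ectodysplasin receptor gene Eda2r read 11.8, 12.7, 10.8 and 2.3 in controls 1 to 4 and 22.8, 146, 109, 65.1 and 154 in DMSO mice 1 to 5 (log2 difference 3.19, SE 0.60, limma adjusted p = 0.00124). Pmaip1, which encodes the pro-apoptotic Noxa, read 198, 249, 363 and 264 in controls 1 to 4 and 1870.4, 3314, 1321, 1855 and 1603 in DMSO mice 1 to 5 (log2 difference 2.85, SE 0.26, limma adjusted p = 1.42e-05). DMSO mouse 1 was lowest for Eda2r and both Xist-positive mice were high. Btg2 and Trp53inp1 rose by 2.75 and 2.21. The p53 inhibitor gene Mdm2, itself a target, read 1918, 1939, 1932 and 1772 in controls 1 to 4 and 1997, 1991, 2288, 3486 and 2058 in DMSO mice 1 to 5 and did not pass, although every DMSO value was higher (log2 0.29, adjusted p = 0.21). With Xist status as a covariate 9 of the list were higher. Of 27 cell death genes 11 rose and 3 fell: Tnfrsf12a, the TWEAK receptor, read 922, 620.0, 783 and 528 in controls 1 to 4 and 11912, 8328, 9873, 23103 and 2063 in DMSO mice 1 to 5 (log2 difference 3.62, SE 0.57, limma adjusted p = 7.92e-04), the inflammasome gene Nlrp3 and the necroptosis executor Mlkl rose by 1.53 and 1.33, and Bak1 fell by 1.41. The cell death counts were 7 and 2 without control 2, 7 and 3 without control 4 and 5 and 2 with Xist status as a covariate. Mdm2 passed with total-read scaling (log2 0.60, adjusted p = 0.0298).

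More genes rose than fell among proteasome and chaperone genes. Of 32 proteasome genes 20 rose and 2 fell. Psmd14, a deubiquitinase of the lid, read 1066, 928, 1271 and 1089 in controls 1 to 4 and 4192, 2649.6, 3231, 3307 and 2125 in DMSO mice 1 to 5 without overlap (log2 difference 1.48, SE 0.20, limma adjusted p = 1.41e-04), and Psma5, Psmb7 and Psmc6 of the core, catalytic and base rings rose by 1.28, 1.26 and 1.31. Of 23 endoplasmic reticulum chaperone genes 13 rose and 2 fell. Pdia6, a disulfide isomerase, read 5038, 5014, 5527 and 5916 in controls 1 to 4 and 24537, 25808, 17989.8, 16617 and 16677 in DMSO mice 1 to 5 (log2 difference 1.90, SE 0.19, limma adjusted p = 2.80e-05), Sdf2l1 rose by 1.63 and Hspa5, the chaperone BiP, by 1.19, while Ddit3 (CHOP) did not pass (-0.11, adjusted p = 0.729). Among the 6 Xist-positive libraries 13 proteasome genes were higher and 3 lower, and 7 chaperone genes higher and 2 lower. With Xist status as a covariate those counts were 10 and 3 and 7 and 1. The chaperone counts were 8 and 1 without control 2 and 20 and 1 scaled to total reads. Of 22 ATF4 pathway genes 10 rose, among them Mthfd2 of mitochondrial folate use (2.10) and Asns of asparagine synthesis (1.41), and 2 fell, among them Shmt2 (-1.33). Those counts were 5 and 1 without control 2, 6 and 1 without control 1 or 3, 6 and 2 without DMSO mouse 2 or among Xist-positive libraries, and 3 and 2 with Xist status as a covariate. Of 18 heat shock genes 6 rose and 4 fell, with the regulator gene Hsf1 down by 1.27, and 2 were higher and 4 lower among Xist-positive libraries and 3 and 3 with Xist status as a covariate.

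Antioxidant and iron genes were called in both directions, as were genes as a whole (23.4% higher and 23.1% lower). The NRF2 targets Nqo1 and Srxn1 rose by 2.04 and 1.51, and the peroxide and superoxide enzymes Cat and Sod3 fell by 1.17 and 1.84. Of 27 genes of that list 7 rose and 4 fell. The counts were 11 and 4 scaled to total reads, 3 and 8 among Xist-positive libraries, 2 and 8 with Xist status as a covariate, 4 and 3 without control 2 or control 4 and 5 and 5 without DMSO mouse 3, so the list has no direction that holds. Of 16 iron handling genes 7 rose and 2 fell. The transferrin gene Trf read 1314, 1612, 1579 and 1104 in controls 1 to 4 and 8004, 10865, 11868, 1738 and 4404 in DMSO mice 1 to 5, lowest of the DMSO group in mouse 4 (log2 difference 2.12, SE 0.50, limma adjusted p = 0.00608). The ferric reductase gene Steap3 read 4130.1, 4876, 3633 and 4883 in controls 1 to 4 and 930.4, 796, 433, 558 and 978 in DMSO mice 1 to 5 (log2 difference -2.62, SE 0.24, limma adjusted p = 1.42e-05), and the iron and zinc importer gene Slc39a8 fell by 1.28.

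In 3 metabolic lists more genes fell than rose. Of 30 amino acid catabolism and creatine genes 13 fell and 3 rose: besides Gatm its partner Gamt fell by 2.24 and the urea-cycle enzyme gene Ass1 by 1.67, and the arginase gene Arg2 rose by 1.61. Of 19 genes from tryptophan to NAD 9 fell and 1 rose. Acmsd, which diverts the pathway away from NAD, read 9389.7, 7302, 3142 and 11306 in controls 1 to 4 and 611, 268, 63.5, 1000.3 and 1352 in DMSO mice 1 to 5, lowest in DMSO mouse 3 (log2 difference -4.04, SE 0.86, limma adjusted p = 0.00466). The NAD synthesis genes Qprt and Nmnat1 fell by 1.07 and 1.30, and Nampt of the salvage path did not pass (0.40, adjusted p = 0.133). Scaled to total reads 5 of the NAD list were lower and 2 higher, and with Xist status as a covariate 5 and 0. Of 16 gluconeogenic and fructose genes 6 fell and 2 rose: G6pc, which releases free glucose, read 25015, 39981, 30310.3 and 40211 in controls 1 to 4 and 34384, 5249.7, 1809, 1908 and 9718 in DMSO mice 1 to 5, at control level in DMSO mouse 1 and below all controls in the other 4 (log2 difference -2.54, SE 0.79, limma adjusted p = 0.026), and the fructose transporter gene Slc2a5 fell by 1.94. With Xist status as a covariate 3 of that list were lower and 1 higher. G6pc did not pass in edgeR, in DESeq2 or without control 2, control 4 or DMSO mouse 2 (adjusted p from 0.0519 to 0.117) and Arg2, Acmsd, Qprt, G6pc and Slc2a5 with Xist status as a covariate (adjusted p from 0.054 to 0.173). Arg2 did not pass among Xist-positive libraries (log2 1.15, adjusted p = 0.0833). Nampt passed with total-read scaling or without DMSO mouse 5 (adjusted p from 0.0192 to 0.0292).

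Fuel genes gave mixed directions, and the fatty acid oxidation and glycolytic counts were near the shares over all genes (23.4% higher and 23.1% lower). Of 30 fatty acid oxidation genes 6 rose and 7 fell, and 13 and 6 scaled to total reads. Cyp4a12a, an androgen-dependent fatty acid hydroxylase, read 102, 81.3, 82.4 and 58.6 in controls 1 to 4 and 12602, 418, 2074, 17339 and 604 in DMSO mice 1 to 5, highest in Y-positive mice 1 and 4 and still above the controls in mice 2 and 5 (log2 difference 5.0, SE 1.13, limma adjusted p = 0.00679). The electron transfer gene Etfb and the ketone enzyme gene Bdh1 fell by 3.0 and 2.48. Of 31 nuclear respiratory chain genes 9 fell and 3 rose, and scaled to total reads 5 and 14, so that list has no direction that holds across scalings. Of 26 glycolytic and hypoxia genes 6 rose and 6 fell, with Hk2 up by 2.60 and Eno1 down by 1.29. The counts were 11 and 4 scaled to total reads and 2 and 5 with Xist status as a covariate. Of 29 cholesterol and lipid droplet genes 8 rose and 5 fell, with a median of -0.14. Among Xist-positive libraries they were 5 and 6, with Xist status as a covariate 4 and 5, and without control 1 5 and 5. The lipid droplet coat genes Plin4 and Plin2 rose by 2.37 and 2.12, and Cyp51 of sterol synthesis and Fasn of fatty acid synthesis fell by 2.76 and 1.43. Plin2 read 3740.5, 4238, 2911 and 3932 in controls 1 to 4 and 44607, 7516, 24579.9, 35238 and 3563 in DMSO mice 1 to 5, at control level in DMSO mouse 5. Plin4 and Plin2 did not pass with Xist status as a covariate (adjusted p from 0.0553 to 0.264) and Plin2 among Xist-positive libraries or without control 1, control 2, control 3, control 4, DMSO mouse 1, DMSO mouse 3 or DMSO mouse 4 (adjusted p from 0.0574 to 0.185).

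Among transporters of organic ions more genes fell than rose, and other transport and hormone genes gave mixed directions. Of 26 organic anion and cation transporters 11 fell and 1 rose, the latter Abcc2 (1.04), with the sulfate exchanger gene Slc26a1 down by 2.35. Of 25 amino acid transporters 7 fell and 4 rose: the stress-regulated Slc38a2 rose by 1.61, and the brush border and basolateral Slc36a2 and Slc7a8 fell by 2.81 and 2.64. Scaled to total reads 6 were higher and 5 lower, and with Xist status as a covariate 1 and 4. Slc36a2 was low, at 16.3 to 65.5 in the controls and 1.05 to 11.8 with DMSO. Of 16 vitamin D, phosphate and calcium hormone genes 8 fell and 2 rose. In phosphate handling Slc34a3 read 3807, 4887, 2999.7 and 5243 in controls 1 to 4 and 489.8, 125.96, 142, 759 and 1266 in DMSO mice 1 to 5 (log2 difference -3.42, SE 0.66, limma adjusted p = 0.00264), and the parathyroid hormone receptor gene Pth1r fell by 1.64. Slc20a1, the housekeeping phosphate importer, rose by 2.16. Of 14 renin-angiotensin and kinin genes 6 rose and 4 fell, and among Xist-positive libraries or with the GC trend removed 4 and 5: the kininogen gene Kng1 and the bradykinin receptor gene Bdkrb2 rose by 3.38 and 2.69, and the converting enzyme gene Ace read 21429, 31483, 23603 and 28124 in controls 1 to 4 and 3470.3, 11698, 7878, 9608 and 10153 in DMSO mice 1 to 5 and fell (log2 difference -1.71, SE 0.31, limma adjusted p = 0.00103). Abcc2 did not pass with the GC trend removed (log2 0.78, adjusted p = 0.0516) and Abcc2 and Slc38a2 with Xist status as a covariate (adjusted p from 0.0513 to 0.104).

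Among proteases, their inhibitors and matrix genes more rose than fell. Of 32 proteases and inhibitors 21 rose (2 of these with no control at a count of 10) and 2 fell. Mmp7, a Wnt-linked matrix protease of injured tubule, read 2.14, 4.52, 0.981 and 1.15 in controls 1 to 4 and 156, 146, 857, 10.5 and 78.8 in DMSO mice 1 to 5 (log2 difference 5.26, SE 0.98, limma adjusted p = 0.00152). Timp1, the inhibitor induced in scarring, read 32.1, 77.7, 10.8 and 5.74 in controls 1 to 4 and 1141, 1457, 1104, 951 and 340.1 in DMSO mice 1 to 5 (log2 difference 5.40, SE 0.67, limma adjusted p = 1.71e-04). DMSO mouse 4 was lowest for Mmp7 and mouse 5 for Timp1, and neither reached the controls. The aggrecanase gene Adamts4 rose by 4.07 and the antigen-processing protease gene Ctss by 3.34, and Timp3, a matrix-bound inhibitor, fell by 0.99. Of 27 collagens and matrix genes 10 rose and 2 fell. The crosslinking enzyme gene Lox and Tgfbi rose by 2.64 and 2.45, and Fn1 (-0.24, adjusted p = 0.717) and Col3a1 (0.69, adjusted p = 0.475) did not pass. Of 33 growth factor genes 6 rose (1 of these with no control at a count of 10) and 7 fell, near the shares over all genes. Scaled to total reads the counts were 8 and 3. The EGF receptor ligand gene Areg read 0, 2.71, 0 and 0 in controls 1 to 4 and 28.7, 166, 121, 34.7 and 15.3 in DMSO mice 1 to 5. With 3 reads in the 4 controls together the ratio of pooled reads was 98.7 (interval 33.5 to 480.5). Hgf rose by 2.15, and Igf1 and Fgf1 fell by 1.90 and 2.14. Adamts4 did not pass with Xist status as a covariate or in voom (adjusted p from 0.0568 to 0.0716). Col3a1 passed among Xist-positive libraries (log2 1.79, adjusted p = 0.0413).

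Of 37 cytosolic ribosomal protein genes 13 rose and 3 fell, and these genes have many near-identical processed pseudogenes, so their reads are uncertain. The counts were 6 and 3 without control 4, 8 and 2 without control 2, 5 and 5 among Xist-positive libraries, 4 and 4 with Xist status as a covariate and 24 and 2 scaled to total reads. Of 23 mitochondrial ribosomal protein genes none rose and 9 fell, with Mrpl4 at 11971, 10473, 6084 and 9429 in controls 1 to 4 and 3596, 2247, 1895, 3188 and 2245 in DMSO mice 1 to 5 (log2 difference -1.85, SE 0.24, limma adjusted p = 1.28e-04). The clock activator gene Arntl (Bmal1) read 84.6, 92.2, 99.1 and 109 in controls 1 to 4 and 489, 229, 288, 634 and 125 in DMSO mice 1 to 5 (log2 difference 1.65, SE 0.40, limma adjusted p = 0.00531). The output gene Dbp read 13087, 11740.2, 8287 and 12439.9 in controls 1 to 4 and 873, 2321, 3058, 617 and 3234 in DMSO mice 1 to 5 (log2 difference -2.76, SE 0.48, limma adjusted p = 0.00116). DMSO mice 1 and 4 had the highest Arntl and the lowest Dbp of the 9 libraries, and mouse 5 was nearest the controls for both. The repressor genes Nr1d1 and Per3 fell by 2.38 and 1.51. Of 19 clock genes 4 rose and 9 fell, scaled to total reads 5 and 5, and with Xist status as a covariate 0 and 3. The hour at which each kidney was taken is not in the labels, so its part in these values was not tested. Arntl and Per3 did not pass with Xist status as a covariate (adjusted p from 0.0933 to 0.109) and Arntl among Xist-positive libraries (log2 0.82, adjusted p = 0.052).

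The 5 DMSO kidneys were not alike. A first principal component with 63.5% of the variance parted the groups, and a second with 12.01% parted DMSO mice 1 and 4 from mice 2, 3 and 5. Mice 1 and 3 carried the most acute-phase and neutrophil granule RNA, mouse 4 the most Lif, Fosl1 and Retnlg and the least C3 and Spp1, and mouse 2 the most Spp1. List means, taken over members as the difference from the control mean, set the lists apart by how even the mice were. Nephron transcription factors were within -0.96 to -0.84 in all 5. Proximal S2 genes were at -1.83, -1.28 and -1.36 in mice 2, 3 and 5 and at -0.06 and 0.74 in mice 1 and 4. S3 genes were at -1.5, -0.62 and -1.16 against 0.06 and 1.07, so that in mouse 4 both list means were above the controls. The S2 list holds the sex-biased Slco1a1 (log2 5.57), highest in mouse 4 and near absent from the controls, which raises its means in mice 1 and 4. Means without sex-biased members were not taken, so these values do not show that proximal genes in general were kept there. T, natural killer and B cell genes were at -2.21 in mouse 1 and 0.86 in mouse 5, and antigen presentation genes at 1.29 and 1.30 in mice 2 and 5 and -0.13 in mouse 4. Mouse 5 had the lowest Tert of the group and also the lowest Fgg, Cxcl1, Socs3, Atf3, Cdkn1a and Krt20, with Cdkn1a at 11083, 6503, 7956, 10318 and 1704 in DMSO mice 1 to 5 and Krt20, a keratin of injured tubule and urothelium, at 2276, 6408, 9254, 1113 and 702 in DMSO mice 1 to 5. Even there Cdkn1a exceeded its control range of 572 to 988 and Krt20 its range of 19.6 to 28. With 5 mice, of 2 sexes and 3 durations, these orders are descriptions.

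**Figure D4:**
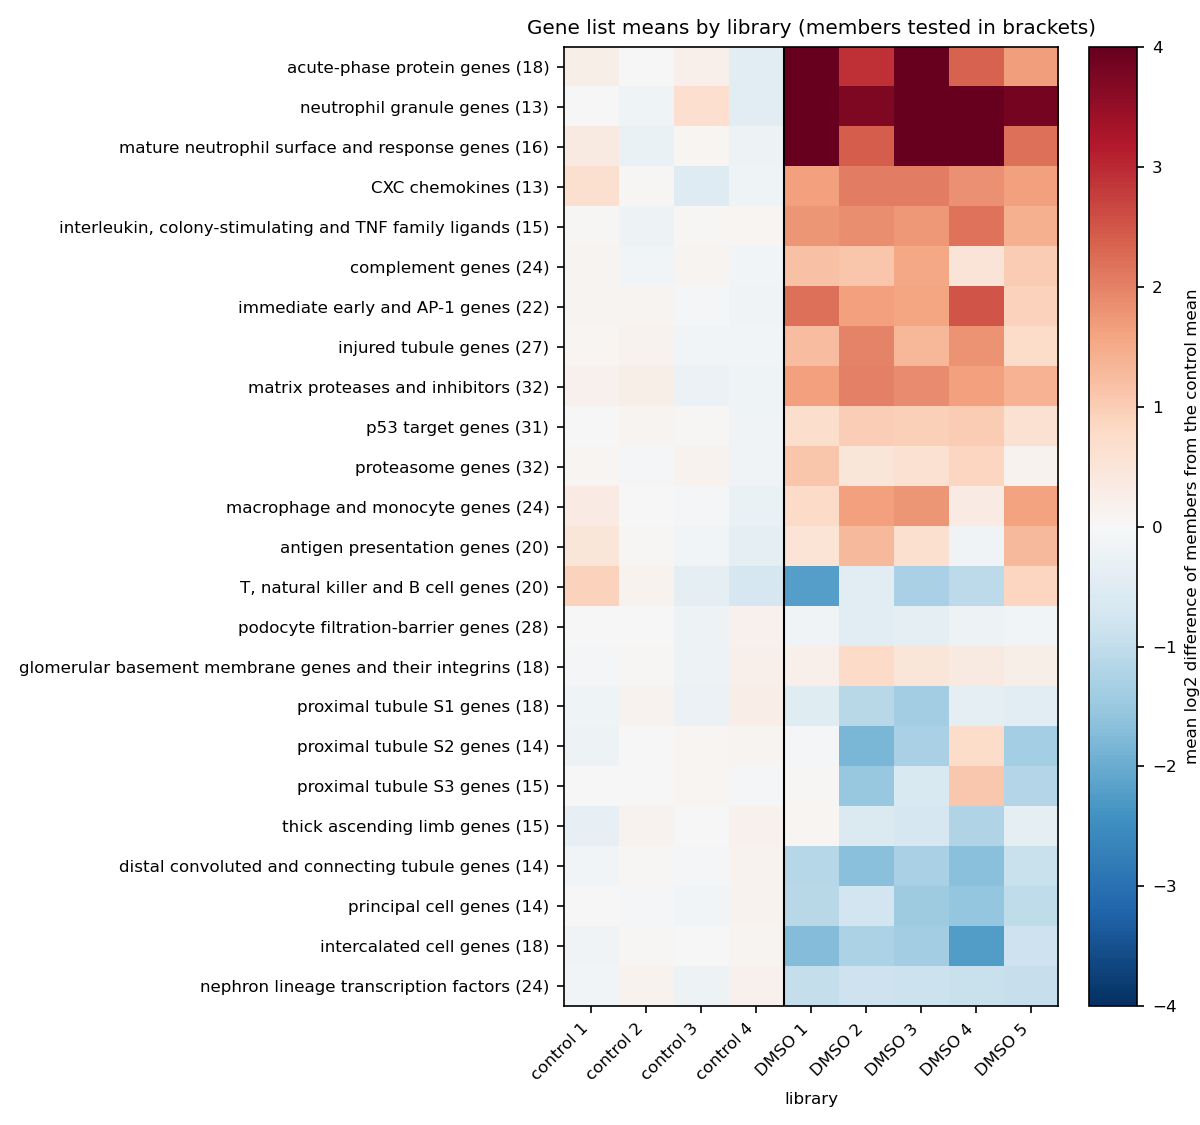
Mean log2 difference of list members from the control mean (colour, clipped at 4 in either direction) for 24 gene lists (rows) in each of the 9 libraries (columns). Both neutrophil rows are past the colour range in mice 1, 3 and 4 (6.75, 6.72 and 4.95 for granule genes), the acute-phase row in mice 1 and 3 (4.89 and 4.44), and the distal tubule rows are blue in all 5 DMSO mice.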

How the data were processed

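RNA from whole kidney was sequenced in 4 control and 5 DMSO mice. Per the submitters' processing notes FastQC, Trimmomatic, STAR, DESeq2 and mm10 were used. Not given in the sources used here: their versions, the read counter, its annotation and its strand setting. The deposited signal values are counts that the authors divided by 1 size factor per library: divided by the smallest step of their library, 100% came out whole within 0.001, and these recovered reads sum to 47196007 to 64582234 per library. The table starts at genes with 10 reads in total. The authors' table was used as deposited, after log2 of the value plus a pseudocount of 1.

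Of 24221 genes 18058 reached 10 in 4 libraries and entered limma 3.58.1 (trend, robust) with Benjamini-Hochberg adjustment over all of them, at 0.05. The signed log2 differences are DMSO minus control on that scale, which understates changes of low genes. limma, edgeR 4.0.16 and DESeq2 1.42.0 were run on simulated counts in which 200 genes had known fold changes. The simulation gave every gene the same dispersion and changed far fewer genes than were called here. It therefore does not show how the tools perform on these data. Gene positions come from GENCODE M21 (23278 genes matched by ID, 96.1%), promoters from RefSeq (GRCm38.p6). Alternatives were pseudocounts of 0.5 and 4, no filter and a filter at 50, other scalings, edgeR, DESeq2 and voom on the recovered reads, Xist status as a covariate or Xist-positive libraries alone, a replicate block and each library left out. Fits on protein-coding genes alone or with the GC trend removed (median deviation from the gene mean in 50 bins of transcript GC, per library) were added after seeing the data. A list count is given under an alternative where the larger direction moved by over 1.5 times.

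The members and the 70 gene lists were chosen with earlier results of these data known. Of 1408 list symbols 1375 were found, and 104 are in more than 1 list. Named by rule were Tert, Ppm1d, Xist and Ddx3y; among called genes whose groups do not overlap, the 12 largest rises and falls by log2 with a group mean of at least 100, the 12 by difference in mean normalised count and the 10 with the smallest p in each direction, leaving out predicted and mitochondrial genes; and per list the head gene and the 3 smallest p. Other named genes were chosen after their values were seen. Some genes that the rule names are not reported here. The second table of the series was not used here, since it was scaled separately.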

Additional observations from a re-analysis of the deposited data

Results flagged for a closer look

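In each group, the sample farthest from the others was compared with the group's range, for the 88 genes given library by library and for 9 library measures. Of 194 groups of samples examined 24 had a sample whose gap passed Dixon's 95% critical value, a rule by which chance alone marks about 1 group in 20.

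DMSO mouse 4 stood highest of its group for Fosl1 (1941), Lif (1652), Cxcr2 (572), Mdm2 (3486) and Slc7a13 (11434), and lowest for Dyrk1b (346). Its kidney was taken at 38 days, later than the other 4. DMSO mouse 1 stood highest for Fgb (192749), Socs3 (7833), Umod (646149.6) and G6pc (34384). DMSO mouse 2 stood highest for Pmaip1 (3314) and lowest for the mitochondrial share of reads (4.95%). DMSO mouse 3 stood highest for Mmp7 (857), and DMSO mouse 5 for Slc4a1 (729).

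Among the controls, control 3 stood highest for Alb (1981), Ctsl (10558), Msr1 (44.2) and Slco1a1 (30.4), control 2 for Tsc22d1 (15866), Areg (2.71) and Vgf (1.81), and control 1 for the share of mitochondrial ribosomal RNA (0.613%) and of the list of untailed RNAs that contains it (0.617%). Control 4 stood lowest for Mdm2 (1772). Slco1a1, Areg and Vgf each had reads in only 1 control, so the gap was the whole range and the flag was fixed. The chance rate of the rule does not apply to such values.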

How the results depend on the processing

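Of 388 named genes with a test, 334 called, calls and directions were the same under both other pseudocounts, no filter, TMM and size factors without mitochondrial, histone and untailed RNAs. With the filter at 50 all 367 that remained in the test were, and under the other planned settings between 344 and 383. Genes higher and lower were 2524 and 2674 with Xist status as a covariate, and 2455 were lower with total-read scaling. Leaving out each library in turn gave 3323 to 4331 genes higher and 3261 to 4197 lower, and a Tert difference of 3.0 to 3.56. Directions turned in the Xist-positive libraries for Slc7a13 (-3.38, adjusted p = 0.00205), Cx3cr1 (0.89, adjusted p = 0.0116) and Xist itself (1.18, adjusted p = 0.0045), and with the GC trend removed as well for Slc7a13 (-3.73), Cx3cr1 (0.98), Xist (0.82), Tfrc (-0.69) and Fn1 (0.92), where 23 other calls were lost. The cause was not tested. Among the lists, between 24 and 70 of 70 kept both counts within 1.5 times, fewest with Xist status as a covariate and then with total-read scaling (33).

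The fit with the replicate block gave 4208 genes higher and 4127 lower, and 378 named genes were the same. Same-numbered samples share only a number: their deviations from the group means correlated between -0.061 and 0.087 over 4 pairs. GC trend removal left 3798 genes higher and 3751 lower. With 4 and 5 libraries of this depth, low genes and genes that vary between mice are limited by the number of mice.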

Other observations

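Mitochondrially encoded genes did not move together: of 13 tested 4 rose and 6 fell (1 of these with no DMSO library at a count of 10). mt-Co3 differed by 2.55, mt-Nd4 by -2.54 and mt-Atp8 by -4.27 on the log2 scale, and each parted the groups without overlap. mt-Nd6, the only one of these that lies on the other strand, took 0.00131% to 0.00937% of mitochondrial reads in the controls and 0.127% to 0.317% with DMSO. Whether the counting used strand is not given, so sense and antisense reads there cannot be told apart.

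Among other RNA classes 10 of 13 small nucleolar RNAs were higher, and of 522 lincRNAs 45 were higher and 177 lower, with a median of -0.50 on the log2 scale. Of 27 injured tubule genes 16 rose and 3 fell. Of 9 histone genes none rose and 6 fell (1 of these with no DMSO library at a count of 10).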
